A study of Homo sapiens with 8 samples.

Results

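The genes described here are 49 genes of DNA replication, chosen by symbol, with their complexes taken from a list of names and not from the measured values. They code for the origin recognition complex, the factors that load the replicative helicase, the helicase itself, its activators, the sliding clamp and its loader, the replicative polymerases, the enzymes that join new strands, the single-strand binding protein, enzymes of nucleotide supply and factors that rebuild chromatin behind the fork. The symbols matched 52 of the 20323 rows in the deposited table, 1 annotated gene for each symbol and a second row for MCM8, PRIM1 and POLA2. All 49 genes passed the filter on low counts. Expression was measured by RNA sequencing in H2452, an established human cell line of unmodified genotype, labelled as biphasic pleural mesothelioma. Cells received 20 nM deoxypodophyllotoxin (DPT), a lignan that binds tubulin and keeps microtubules from assembling, or the solvent DMSO, and were collected after 48 h. There were 4 libraries per group, called biological replicates by the series design, with totals of 14964432 to 17205391 counts. The line stands for 1 tumour, and 1 dose and 1 time were measured.

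Replication starts in 2 steps that cannot overlap in time. Before S phase, the origin recognition complex (ORC), CDC6 and CDT1 load the ring of MCM2 to MCM7 onto DNA as an inactive helicase, which is called licensing, and geminin (GMNN) blocks CDT1 after S phase has begun. In S phase CDC45 and the GINS complex join the ring and turn it on, polymerase alpha-primase lays down primers, the clamp PCNA is placed by replication factor C, and polymerases delta and epsilon copy the strands. Many of these genes are targets of E2F transcription factors, whose activity rises as cells commit to S phase.

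The promoters of 4 MCM genes are shown first, because these were the members with at least 2 E2F-type motifs in 1 window. The motifs were chosen with earlier results known, and MCM4 and MCM5 had no window to search, so motifs and expression are not compared. RefSeq windows of 300 bases (250 before and 50 after the start given by RefSeq, build GRCh38.p14) were matched by symbol for 43 of the 49 genes, some with more than 1 window. GENCODE 29 places some starts elsewhere. By its gene spans the MCM7 window lies wholly inside the gene and the MCM2, MCM3 and MCM6 windows partly so. For MCM6 the shared part holds only bases after the RefSeq start. Windows were searched on both strands for TTTCGCGC, TTTGGCGC, TTTCCCGC and TTTGCCGC, and matches on opposite strands may overlap. Among all 35116 RefSeq windows, 3.31% held at least 1 of these motifs, against 4.96% of the 14916 windows of genes tested here and 22 of the 56 windows of the members. The windows of MCM6, MCM2, MCM7 and MCM3 held 4, 2, 2 and 2 motifs. At least 2 were found in 0.145% of all windows and in 0.248% of the windows of genes tested here. The 4 windows are printed with the motifs in capitals, from 250 bases before the start to 30 after it, on the strand of the gene.
MCM6 (chr2:135876414-135876693, minus strand): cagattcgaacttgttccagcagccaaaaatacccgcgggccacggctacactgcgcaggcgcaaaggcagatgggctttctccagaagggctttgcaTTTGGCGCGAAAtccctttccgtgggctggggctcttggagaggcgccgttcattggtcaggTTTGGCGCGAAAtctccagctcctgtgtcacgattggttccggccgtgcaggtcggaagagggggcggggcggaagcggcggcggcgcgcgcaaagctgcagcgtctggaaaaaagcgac
MCM2 (chr3:127598161-127598440, plus strand): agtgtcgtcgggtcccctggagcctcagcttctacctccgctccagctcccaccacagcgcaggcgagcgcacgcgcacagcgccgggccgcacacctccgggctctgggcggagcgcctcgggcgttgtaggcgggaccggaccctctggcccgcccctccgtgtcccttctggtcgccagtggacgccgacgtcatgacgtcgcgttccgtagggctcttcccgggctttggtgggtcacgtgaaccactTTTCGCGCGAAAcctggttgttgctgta
MCM7 (chr7:100101368-100101647, minus strand): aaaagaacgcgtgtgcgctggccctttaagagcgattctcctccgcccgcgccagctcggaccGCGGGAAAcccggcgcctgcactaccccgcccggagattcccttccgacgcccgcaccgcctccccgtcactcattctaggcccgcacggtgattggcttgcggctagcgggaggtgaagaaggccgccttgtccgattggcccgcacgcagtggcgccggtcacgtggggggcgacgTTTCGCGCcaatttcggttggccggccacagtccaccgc
MCM3 (chr6:52284713-52284992, minus strand): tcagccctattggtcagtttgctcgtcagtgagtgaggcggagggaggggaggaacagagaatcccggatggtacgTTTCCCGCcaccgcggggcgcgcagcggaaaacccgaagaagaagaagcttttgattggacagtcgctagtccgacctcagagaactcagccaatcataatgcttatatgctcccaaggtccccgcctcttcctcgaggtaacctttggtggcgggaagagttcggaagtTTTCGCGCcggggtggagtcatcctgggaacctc
In MCM6 and MCM2 each capital run is a pair of overlapping motifs on opposite strands, at bases 99 to 110 and 161 to 172 of the MCM6 window and at bases 253 to 264 of the MCM2 window. MCM7 and MCM3 each held a single motif next to the start (bases 242 to 249 and 247 to 254) and another farther upstream. A further 17 members held at most 1 motif in a window and 22 held none. MCM4, MCM5, GINS4, POLD3, RPA2 and RPA3 were not matched. A match of letters is a description and not evidence of binding.

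In genes of proliferation and of the interferon response, DMSO replicate 3 resembled DPT replicate 2 more than its own group, and these libraries are called the pair below. The 20 genes of a G2 and mitosis list were all higher in both libraries of the pair than in each of the other 6, and their summed level was 3049 to 4517 CPM (counts scaled to library size by the TMM method) in DMSO and 2639 to 4700 CPM in DPT, with the pair at the top of each range. All 20 interferon-stimulated genes were lower in both libraries of the pair than in the other 6. Results are therefore given for all 8 libraries, with a term for the pair in the model, and for the 6 other libraries. The pair was picked from these same counts, members included. The adjusted p values with the pair term and in the 6 libraries do not allow for that choice. Calls in these fits are a description beside the fit on all 8 libraries. All 10 mesothelial markers were above 1 CPM on average, among them MSLN, CALB2 and WT1, and their sum was 3378 to 4862 CPM in DMSO and 2164 to 3548 CPM in DPT. The leukocyte marker MS4A1 was at 0 in every library, 2 of the list of 10 (CD14 and CD68) passed 1 CPM, and the list's sum was 91.4 to 131 CPM in DMSO and 94.7 to 146 CPM in DPT. Of 8 endothelial markers 4 passed 1 CPM (sum 27.6 to 39.6 and 29.8 to 40.2 CPM). Of 10 fibroblast markers 6 did (sum 439 to 544 and 174 to 280.4 CPM), with DCN and LUM at 0. On the marker lists UPK3B, KRT18, COL1A2, COL3A1 and PDGFRB fell and KDR rose in DPT, and their part in the results was not tested.

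DPT was compared with DMSO to ask which of these messages differ after 48 h with a tubulin binder. The subunits of the MCM2 to MCM7 helicase had means in DPT that differed from DMSO by -11.6% (MCM4) to -26.5% (MCM6), while the loading factors CDC6 and CDT1 and their inhibitor geminin lay within 2% of their DMSO level. Of the 49 genes, 3 fell (MCM2, MCM6 and MCM7) and 0 rose when all 8 libraries were tested with edgeR (quasi-likelihood), at a Benjamini-Hochberg adjusted p under 0.05 over all 12648 tested genes. That is 6.12% of the members, beside 5.29% of all tested genes that were lower and 5.68% that were higher. Before adjustment 12 members had a p under 0.05, 11 of them lower. The share of all tested genes under that limit was not counted, and the shares above are for adjusted p, so the 12 have no background beside them. The median log2 fold change (DPT over DMSO, here log2 change) of the members was -0.14, against -0.002 for all tested genes. Of the members 34 of 49 were below 0, beside 6354 of all 12648 tested genes. The members' median was -0.09 without DMSO replicate 3, -0.08 without DPT replicate 3 and -0.22 without DPT replicate 2. With the term for the pair 18 members were lower and 1 was higher (36.7% lower, beside 17% of all tested genes lower and 16.9% higher), and in the 6 libraries 25 were lower and 1 was higher (51% lower, beside 17.1% and 17%). The count of 3 dropped to 1 without DMSO replicate 2 or 4 or DPT replicate 3 or 4. Without DPT replicate 2 alone, 14 members were lower (beside 8.67% of all genes tested then, and 9.26% higher). DESeq2 called 6 lower and 1 higher (7.81% and 8.03% of all genes), limma-voom 3 lower and 0 higher (5.22% lower and 5.38% higher), and a replicate block 1 lower (1.38% lower and 1.35% higher). Fewer cycling cells and less message per cell cannot be told apart in bulk RNA.

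**Figure D1:**
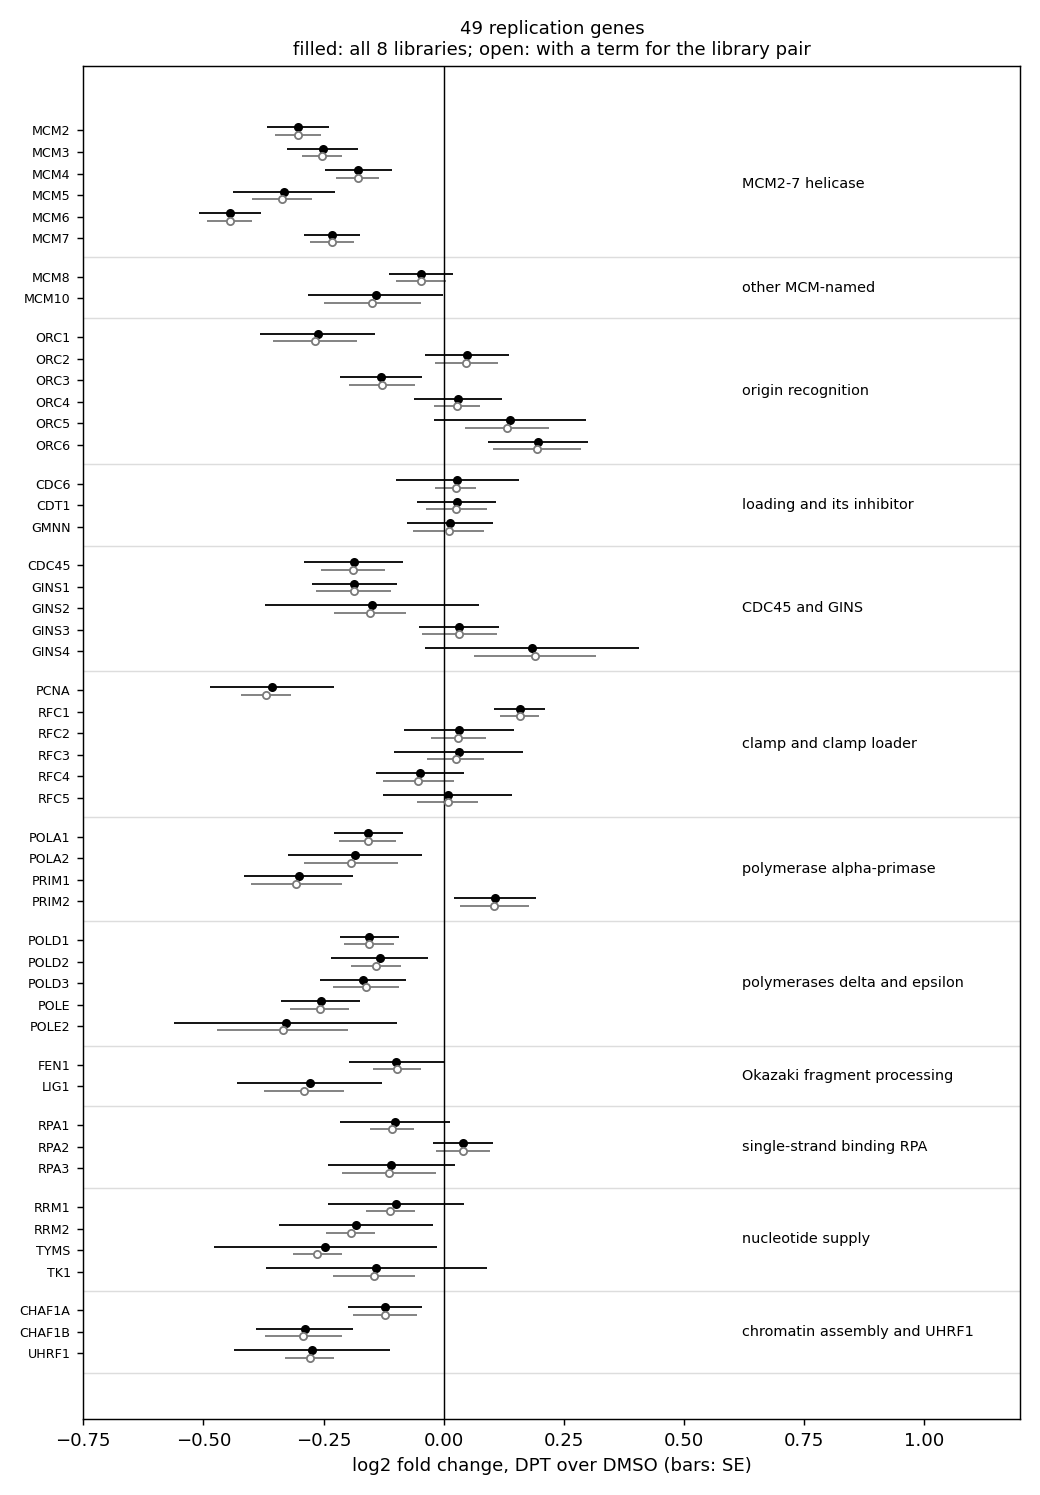
Log2 fold change (DPT over DMSO, x axis) of the 49 replication genes, grouped by complex, with the standard error as bars; filled points are from all 8 libraries and open points from the model with a term for the library pair. The 6 MCM2 to MCM7 subunits lie left of 0, CDC6, CDT1 and GMNN lie at 0, RFC1 lies to the right of 0, and the bars are shorter for the open points.

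The MCM2 to MCM7 ring unwinds DNA at the fork, and each subunit is needed for it. By GENCODE 29 (GRCh38), MCM6 lies at chr2:135839626-135876426, MCM2 at chr3:127598223-127622436 and MCM7 at chr7:100092728-100101940. MCM6 had the largest difference among the members in all 8 libraries. The levels of MCM6 were 137, 135, 142 and 139.6 CPM in the DMSO libraries, in the order of their replicate numbers, and 102, 111, 93.2 and 102 CPM in the DPT libraries. All 4 DPT libraries were below all 4 DMSO libraries. Its mean went from 139 ± 2.91 to 102 ± 7.26 CPM (mean ± SD of 4 libraries each), and it fell by 0.44 on the log2 scale (SE 0.06, adjusted p = 0.00372), with 8 of 8 calls kept when each library was left out in turn (adjusted p 0.000756 to 0.0182). With the pair term the adjusted p was 2.22e-06. For MCM2, DMSO replicates 1 to 4 had 174, 180.5, 172 and 188 CPM and DPT replicates 1 to 4 had 158, 140.0, 142 and 139 CPM. The groups did not overlap, and MCM2 fell by 0.30 (SE 0.06, adjusted p = 0.017). MCM2 shares 22.7% of its exon bases with AC023593.1 on the opposite strand, and no source used here says whether the counting used strand. The MCM2 call was lost without DMSO replicate 2 or 4 or DPT replicate 3 or 4 (adjusted p 0.0528 to 0.0636). MCM7 measured 166, 159, 155 and 164 CPM in DMSO replicates 1 to 4 and 139.8, 145, 132 and 133 CPM in DPT replicates 1 to 4. The groups did not overlap here either, and MCM7 fell by 0.23 (SE 0.06, adjusted p = 0.0318), a call held only without DMSO replicate 3 or DPT replicate 2 (adjusted p 0.0674 to 0.106 without each of the others).

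The other 3 subunits had the same sign and did not pass the test in all 8 libraries. The levels of MCM3 were 182, 180.4, 205 and 186 CPM in the DMSO libraries, in the order of their replicate numbers, and 157, 175, 146 and 154 CPM in the DPT libraries. The groups did not overlap, with a log2 change of -0.25 (SE 0.07, adjusted p = 0.0576). For MCM5, DMSO replicates 1 to 4 had 67.1, 70.1, 78.9 and 71 CPM and DPT replicates 1 to 4 had 58.1, 68.6, 48.2 and 53.3 CPM. Only DPT replicate 2 reached the DMSO range, and the log2 change was -0.33 (SE 0.11, adjusted p = 0.0782). MCM4 measured 116, 118, 125 and 114 CPM in DMSO replicates 1 to 4 and 105, 115, 97.8 and 99 CPM in DPT replicates 1 to 4. DPT replicate 2 again lay within the DMSO range, and the log2 change was -0.18 (SE 0.07, adjusted p = 0.135). With the pair term MCM3, MCM5 and MCM4 were lower by -0.25, -0.34 and -0.18 log2 (adjusted p = 0.000211, 0.000544 and 0.00558). All 6 subunits were called as lower in that fit and in the 6 libraries, beside 17% and 17.1% of all tested genes. Both fits share libraries and rest on the same chosen pair. Within the pair itself, DPT replicate 2 was below DMSO replicate 3 for all 6 subunits, by -0.10 (MCM7) to -0.36 (MCM6) log2. Over all 49 members the median of this difference was 0.016 log2. It was below 0 for 23 of 49, beside 6339 of all 12648 tested genes, so most members were not lower within the pair. In all, 6 of the 49 members were lower with no overlap between groups (12.2%, beside 8.73% of all tested genes), POLD1 and POLE being the others, and 1 was higher with no overlap (RFC1, beside 9.5% of all tested genes).

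**Figure D2:**
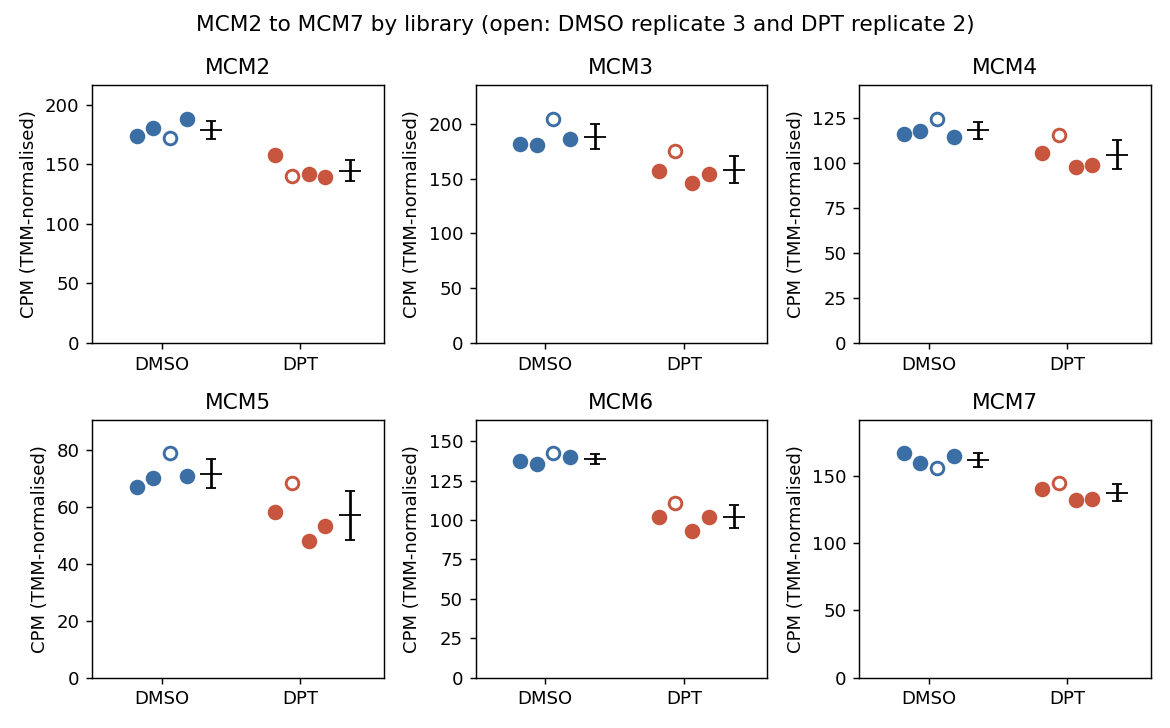
Normalised level (CPM, y axis from 0) of MCM2 to MCM7 in each of the 4 DMSO and 4 DPT libraries, with open points for DMSO replicate 3 and DPT replicate 2 and black marks for the mean and SD of each group. The groups are separate for MCM2, MCM3, MCM6 and MCM7, and for MCM4 and MCM5 the DPT library at the DMSO level is replicate 2.

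Levels of different genes were compared per length, in FPKM (fragments scaled for gene length and sequencing depth) as deposited. MCM5 had the lowest level of the 6 subunits and MCM6 the next lowest in 8 of 8 libraries. The means (± SD of 4 libraries) were 28.2 ± 4.15 FPKM in DMSO and 21.9 ± 2.63 FPKM in DPT for MCM5. For MCM6 they were 36.4 ± 0.927 FPKM in DMSO and 27.5 ± 1.87 FPKM in DPT. MCM2 came above them with 51.9 ± 1.74 FPKM in DMSO and 43.2 ± 2.64 FPKM in DPT. MCM7 (63.7 ± 1.54 FPKM in DMSO and 56 ± 1.99 FPKM in DPT), MCM3 (64 ± 2.54 FPKM in DMSO and 54.9 ± 4.35 FPKM in DPT) and MCM4 (64.2 ± 7.69 FPKM in DMSO and 57.8 ± 14.5 FPKM in DPT) changed places between libraries. MCM4 held ranks 1 to 4, and its FPKM did not follow its counts: FPKM divided by CPM differed 1.84-fold between DPT replicates 3 and 4 (73.5 and 40.5 FPKM), whose CPM values were 97.8 and 99. The median of this ratio's spread over the members was 1.08-fold. The means of the 6 subunits spanned 21.9 to 57.8 FPKM in DPT.

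MCM8 and MCM10 share the name and not the ring, MCM8 being a helicase of recombination repair and MCM10 a factor that helps to fire the loaded ring. The levels of MCM8 were 67.1, 71.1, 70.3 and 63.5 CPM in the DMSO libraries, in the order of their replicate numbers, and 63.9, 71.4, 65.2 and 62.8 CPM in the DPT libraries. For MCM10, DMSO replicates 1 to 4 had 17.9, 20.1, 20.4 and 18.3 CPM and DPT replicates 1 to 4 had 17.7, 22, 16.5 and 13.4 CPM. Groups overlapped for both genes, with log2 changes of -0.05 (adjusted p = 0.713) and -0.14 (adjusted p = 0.573). Neither was called with the pair term or in the 6 libraries. The second row under the symbol MCM8 held 0 to 63.3 counts per library and was not tested.

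Among the 6 ORC genes, whose products mark origins for loading, none was called in all 8 libraries, and 4 of 6 had a positive log2 change. ORC1, the subunit whose abundance follows the cell cycle, had the lowest log2 change of the 6. ORC1 measured 23.7, 21.6, 24.5 and 22.3 CPM in DMSO replicates 1 to 4 and 17.8, 23.6, 15.9 and 19.5 CPM in DPT replicates 1 to 4. DPT replicate 2 lay within the DMSO range and the other 3 DPT libraries below it, with a log2 change of -0.26 (SE 0.12, adjusted p = 0.198), and ORC1 was lower with the pair term (-0.27, adjusted p = 0.0265). ORC3 had the highest level of the 6 per length (39.8 ± 2.98 FPKM in DMSO and 37.3 ± 3.13 FPKM in DPT). The levels of ORC3 were 104, 105, 88.2 and 105 CPM in the DMSO libraries, in the order of their replicate numbers, and 95.4, 99.2, 80.7 and 92 CPM in the DPT libraries. Here DMSO replicate 3 was the low DMSO library, and ORC3 was called as lower in the 6 libraries only (-0.23, adjusted p = 0.00573), not in all 8 (-0.13, adjusted p = 0.372) or with the pair term (adjusted p = 0.16). ORC2, ORC4, ORC5 and ORC6 measured 34.2, 71.4, 19.5 and 15.9 CPM in DMSO and 35.4, 72.9, 21.5 and 18.2 CPM in DPT, with log2 changes of 0.05, 0.03, 0.14 and 0.20 and adjusted p of 0.777, 0.876, 0.636 and 0.27. ORC4 was lower in both libraries of the pair (62.9 and 62.2 CPM) than in each of the other 6, the 1 member with that pattern.

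None of the 3 loading genes was called in any of the 3 fits. CDC6, an ATPase that joins ORC to load the ring, lay between 104 and 110.1 CPM in the 6 libraries outside the pair and above them in the pair. For CDC6, DMSO replicates 1 to 4 had 110.1, 104, 139 and 108 CPM and DPT replicates 1 to 4 had 109.5, 147, 107 and 107 CPM. Its log2 change was 0.03 (SE 0.13, adjusted p = 0.917), and with the pair term 0.02 (SE 0.04, adjusted p = 0.698). CDT1, which brings the ring to the origin, had means of 34 ± 2.26 CPM with DMSO and 34.7 ± 2.84 CPM with DPT (mean ± SD of 4 libraries each) and a log2 change of 0.03 (SE 0.08, adjusted p = 0.876). Geminin, which binds CDT1 and so blocks a second round of loading, had means of 31.9 ± 2.35 CPM with DMSO and 32.2 ± 3.11 CPM with DPT (mean ± SD of 4 libraries each) and a log2 change of 0.01 (SE 0.09, adjusted p = 0.944).

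CDC45 and the 4 GINS subunits turn the loaded ring into an active helicase. None of the 5 was called in all 8 libraries, and 3 had negative values. CDC45 measured 44.8, 40.9, 48.6 and 39.9 CPM in DMSO replicates 1 to 4 and 39.5, 44.5, 35 and 34 CPM in DPT replicates 1 to 4. DPT replicates 1, 3 and 4 lay below every DMSO library and DPT replicate 2 lay within the DMSO range, with a log2 change of -0.19 (SE 0.10, adjusted p = 0.288) that passed with the pair term (-0.19, adjusted p = 0.0391) and in the 6 libraries (-0.21, adjusted p = 0.0452). GINS1 measured 32.5 ± 2.02 CPM with DMSO and 28.5 ± 2.85 CPM with DPT (mean ± SD of 4 libraries each), with an adjusted p of 0.216 in all 8 libraries, 0.0782 with the pair term and 0.0188 in the 6 libraries. The levels of GINS2 were 19.8, 21.6, 32.7 and 20.3 CPM in the DMSO libraries, in the order of their replicate numbers, and 16.9, 31, 18.8 and 18.6 CPM in the DPT libraries. GINS2 thus separated the pair (32.7 and 31 CPM) from the other 6 libraries (16.9 to 21.6 CPM), and its log2 change of -0.15 had an SE of 0.22 (adjusted p = 0.73). GINS3 and GINS4 had values of 0.03 and 0.18 (adjusted p = 0.85 and 0.659). GINS4 was the member with the fewest counts after POLE2, 92 to 234 per library. GINS4 and GINS3 share 21.2% and 10.9% of their exon bases with a second annotated gene on the opposite strand.

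PCNA, the clamp that holds polymerases on DNA, had the highest FPKM of the 49 genes in both groups (133 ± 13.4 FPKM in DMSO and 107 ± 20.9 FPKM in DPT). For PCNA, DMSO replicates 1 to 4 had 162, 163, 197 and 170.2 CPM and DPT replicates 1 to 4 had 126, 175, 117 and 122 CPM. DPT replicates 1, 3 and 4 were all below every DMSO library, and DPT replicate 2 was above 3 of the 4. The log2 change of -0.36 (SE 0.13) did not pass in all 8 libraries (adjusted p = 0.11), and PCNA was lower with the pair term (-0.37, SE 0.05, adjusted p = 4.42e-05) and in the 6 libraries (-0.44, adjusted p = 1.52e-06). Replication factor C opens the clamp and closes it around DNA. Its large subunit RFC1 was the 1 member that was higher with no overlap. RFC1 measured 189, 189.5, 194 and 184 CPM in DMSO replicates 1 to 4 and 204, 208, 215 and 216 CPM in DPT replicates 1 to 4. Its log2 change was 0.16 (SE 0.05, adjusted p = 0.0892 in all 8 libraries), and it was called as higher with the pair term (adjusted p = 0.00683) and in the 6 libraries (0.18, adjusted p = 0.00467). The small subunits RFC2, RFC3, RFC4 and RFC5 had log2 changes of 0.03, 0.03, -0.05 and 0.01 (adjusted p 0.783 to 0.975), and all but RFC4 had their 2 highest values in the pair, as CDC6 did.

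Polymerase alpha-primase makes the short primers that start each new strand. PRIM1, its catalytic primase subunit, had the largest difference of the 4 genes. The levels of PRIM1 were 21.5, 19.6, 19.9 and 20.3 CPM in the DMSO libraries, in the order of their replicate numbers, and 14.4, 20.1, 16.7 and 14.8 CPM in the DPT libraries. DPT replicates 1, 3 and 4 were below all DMSO libraries, with a log2 change of -0.30 (SE 0.11, adjusted p = 0.123) that passed with the pair term (-0.31, adjusted p = 0.02) and in the 6 libraries (-0.42, adjusted p = 0.00251). PRIM2, the regulatory primase subunit, had a value of the opposite sign. For PRIM2, DMSO replicates 1 to 4 had 40.2, 44.3, 42 and 47.5 CPM and DPT replicates 1 to 4 had 42.6, 52.2, 48.1 and 44.4 CPM. Its groups overlapped, with a log2 change of 0.11 (SE 0.08, adjusted p = 0.471). POLA1 and POLA2 measured 54.6 and 32.6 CPM in DMSO and 49 and 28.7 CPM in DPT (adjusted p = 0.197 and 0.448), and both were called as lower in the 6 libraries (adjusted p = 0.0345 and 0.0452). POLA2 has a second row in the table, a readthrough into CDC42EP2 that shares exons with it, which had a positive log2 change of 0.23 (adjusted p = 0.144, and 0.0461 with the pair term). Reads divided between these rows make the value of POLA2 uncertain. The second row of PRIM1 held at most 1.32 counts. PRIM1 shares 14.9% of its exon bases with AC117378.1 on its own strand.

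Polymerase delta copies the lagging strand and polymerase epsilon the leading strand. All 5 of their genes had negative log2 changes, from -0.13 to -0.33, and none was called in all 8 libraries. POLE measured 75, 74, 76.2 and 76.8 CPM in DMSO replicates 1 to 4 and 66.8, 71.5, 56.5 and 58.1 CPM in DPT replicates 1 to 4. The groups did not overlap for POLE, the catalytic subunit of polymerase epsilon, with a log2 change of -0.26 (SE 0.08, adjusted p = 0.0761, and 0.00406 with the pair term). POLD1, the catalytic subunit of polymerase delta, did not overlap either, with means of 59.7 ± 2.38 CPM with DMSO and 53.6 ± 2.29 CPM with DPT (mean ± SD of 4 libraries each) (log2 change -0.15, adjusted p = 0.142, and 0.029 with the pair term). POLD1 was the 1 member called with the pair term and not in the 6 libraries (adjusted p = 0.0519). The levels of POLD2 were 109, 105, 119 and 109 CPM in the DMSO libraries, in the order of their replicate numbers, and 96.7, 123, 90.4 and 93 CPM in the DPT libraries. POLD2, an accessory subunit with the highest FPKM of the 5 (67.2 ± 4.11 FPKM in DMSO and 64 ± 10.4 FPKM in DPT), was lower with the pair term (-0.14, adjusted p = 0.045) and not in all 8 libraries (-0.13, adjusted p = 0.448). POLD3 had means of 48.1 ± 5.53 CPM with DMSO and 42.8 ± 1.44 CPM with DPT (mean ± SD of 4 libraries each), with an adjusted p of 0.269 in all 8 libraries, and was called as lower in the 6 libraries (-0.25, adjusted p = 0.00556). For POLE2, DMSO replicates 1 to 4 had 7.11, 6.24, 9.69 and 5.93 CPM and DPT replicates 1 to 4 had 4.83, 8.27, 4.48 and 5.51 CPM. POLE2 had the widest error of the 5, with a log2 change of -0.33 and an SE of 0.23 (adjusted p = 0.414), on 75 to 166 counts per library.

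FEN1 trims and LIG1 joins the fragments of the lagging strand. FEN1 measured 81.6, 81, 103 and 88 CPM in DMSO replicates 1 to 4 and 83.8, 93.9, 76.7 and 76.2 CPM in DPT replicates 1 to 4. The levels of LIG1 were 28, 30, 35.9 and 32 CPM in the DMSO libraries, in the order of their replicate numbers, and 25.5, 34.5, 21.5 and 22.4 CPM in the DPT libraries. For LIG1, DPT replicates 1, 3 and 4 were below all DMSO libraries, with a log2 change of -0.28 (SE 0.15, adjusted p = 0.276) that passed with the pair term (-0.29, adjusted p = 0.0124). FEN1 had a value of -0.10 (SE 0.10, adjusted p = 0.58) and was called in neither the pair-term fit nor the 6 libraries. Replication protein A coats single-stranded DNA at the fork. For RPA1, DMSO replicates 1 to 4 had 167, 158, 195 and 164 CPM and DPT replicates 1 to 4 had 148, 197, 141 and 151 CPM. RPA1, its large subunit, was called as lower in the 6 libraries only (-0.15, adjusted p = 0.0195). RPA3 measured 27.9, 32.8, 30.8 and 25.2 CPM in DMSO replicates 1 to 4 and 23.5, 32.8, 23 and 29 CPM in DPT replicates 1 to 4. The groups overlapped for RPA3 (-0.11, SE 0.13, adjusted p = 0.655), and RPA2 lay at means of 50.4 ± 2.68 CPM with DMSO and 51.8 ± 1.29 CPM with DPT (mean ± SD of 4 libraries each) (0.04, adjusted p = 0.739).

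Nucleotide supply was where the library pair stood out most. RRM1 and RRM2 form ribonucleotide reductase, TYMS makes thymidylate, and TK1 salvages thymidine. The levels of TYMS were 134, 134, 211 and 128 CPM in the DMSO libraries, in the order of their replicate numbers, and 113, 193, 98.2 and 108 CPM in the DPT libraries. The pair held the 2 highest values, and among the others the DPT libraries lay below the DMSO libraries. The log2 change was -0.25 with an SE of 0.23 in all 8 libraries (adjusted p = 0.553) and -0.26 with an SE of 0.05 with the pair term (adjusted p = 0.000921). In all 8 libraries less 1 it ran from -0.05 without DMSO replicate 3 to -0.51 without DPT replicate 2. For RRM2, DMSO replicates 1 to 4 had 233, 241, 313 and 231 CPM and DPT replicates 1 to 4 had 214, 299.7, 182 and 201 CPM. RRM2 had the same order, with -0.18 (SE 0.16, adjusted p = 0.522) and, with the term, -0.19 (SE 0.05, adjusted p = 0.0085), and ran from -0.07 to -0.36 without the same libraries. RRM1 measured 224 ± 28.2 CPM with DMSO and 209 ± 43.4 CPM with DPT (mean ± SD of 4 libraries each) (adjusted p = 0.714, 0.103 with the term and 0.0128 in the 6 libraries). TK1 measured 62.2 ± 16.2 CPM with DMSO and 56.5 ± 17.7 CPM with DPT (mean ± SD of 4 libraries each) and was called in none of the 3 fits (adjusted p = 0.756, 0.213 and 0.227). TYMS shares 39.1% of its exon bases with ENOSF1 on the opposite strand, and RRM2 shares 20.2% with a second annotated gene on its own strand, so part of their counts could belong to these genes.

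CHAF1A and CHAF1B are the large subunits of chromatin assembly factor 1, which places new histones behind PCNA, and UHRF1 carries DNA methylation over to the new strand. CHAF1B measured 38.2, 41.4, 41.7 and 43 CPM in DMSO replicates 1 to 4 and 36.6, 38.5, 29.8 and 29.6 CPM in DPT replicates 1 to 4. DPT replicates 1, 3 and 4 were below all DMSO libraries, and CHAF1B had a log2 change of -0.29 (SE 0.10, adjusted p = 0.0981, and 0.00994 with the pair term). The levels of UHRF1 were 115, 101, 153 and 114 CPM in the DMSO libraries, in the order of their replicate numbers, and 93.3, 132, 86 and 88.3 CPM in the DPT libraries. UHRF1 had -0.27 (SE 0.16, adjusted p = 0.326), and with the term -0.28 (SE 0.05, adjusted p = 0.000522). It ran from -0.14 without DMSO replicate 3 to -0.44 without DPT replicate 2, where it was called as lower (adjusted p = 0.0396). CHAF1A measured 63.4 ± 3.38 CPM with DMSO and 58.3 ± 5.04 CPM with DPT (mean ± SD of 4 libraries each) (adjusted p = 0.361) and was called as lower in the 6 libraries alone (adjusted p = 0.0318).

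**Figure D3:**
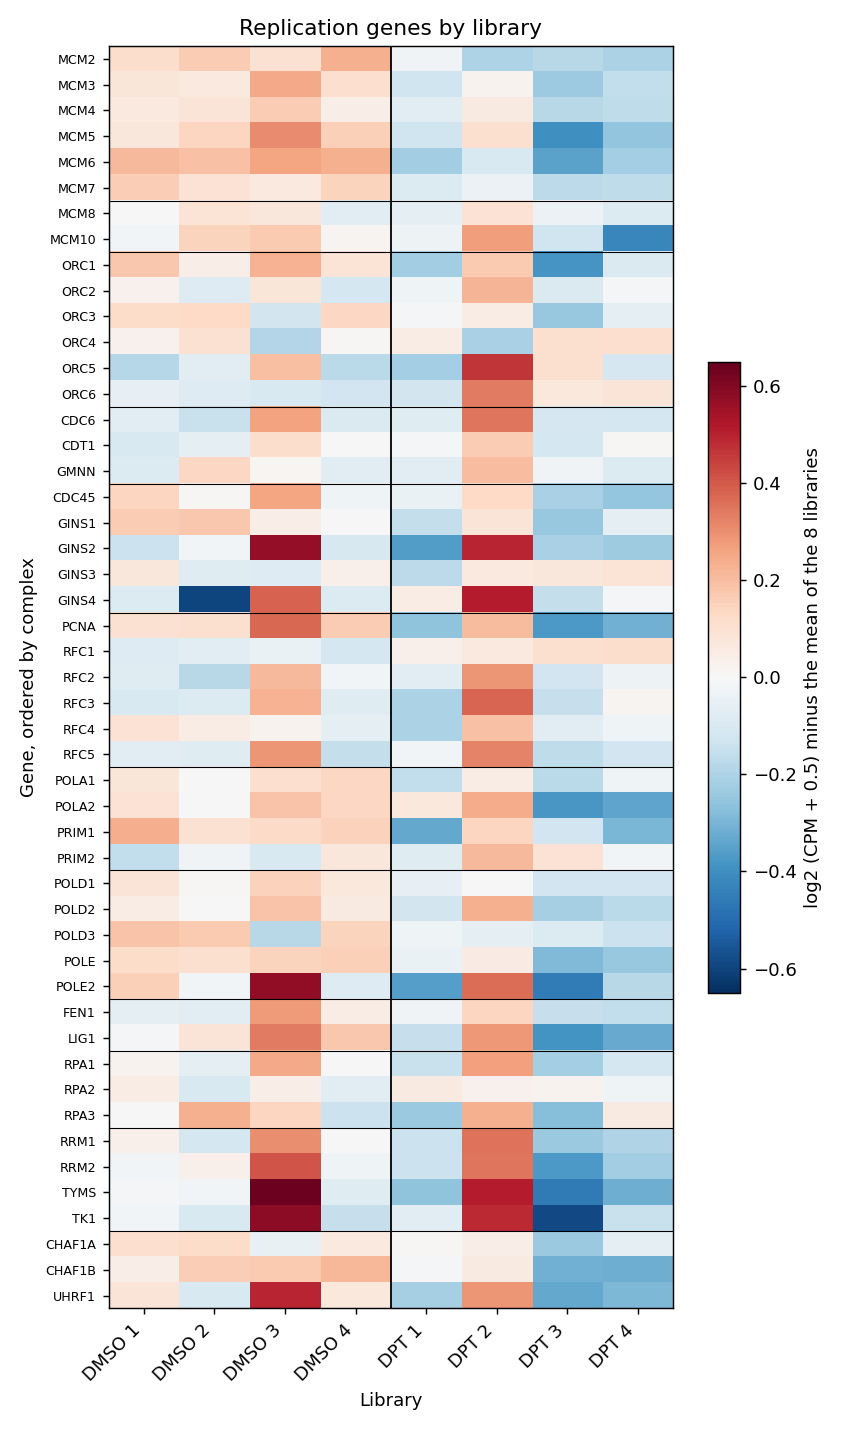
Each of the 49 genes (rows, ordered by complex) in each of the 8 libraries (columns), as log2 (CPM + 0.5) minus the gene's mean over the 8 libraries; red is above and blue below the mean. TYMS, TK1, GINS2 and POLE2 are among the reddest in DMSO 3 and DPT 2, and the MCM2 to MCM7 rows are above their mean in all DMSO libraries and below it in DPT, except that MCM3, MCM4 and MCM5 are above it in DPT 2.

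The difference of the pair and the difference between DPT and DMSO each varied from member to member, and some members had both. PCNA, TYMS and UHRF1 exceeded the 6 other libraries in both libraries of the pair. Their log2 changes with the pair term were -0.37, -0.26 and -0.28. In both libraries of the pair 36 of the 49 genes were above the mean of the other 3 libraries of their own group, beside 4780 of all 12648 tested genes. All 6 other libraries were exceeded in both by 22 of 49 (44.9%), beside 17.4% of all tested genes. Since the pair was picked on all genes, members included, these counts are a description with no test. For the 4 nucleotide genes the median difference was 0.54 log2 for DMSO replicate 3 and 0.67 for DPT replicate 2, and 4 of 4 exceeded all other libraries. For MCM2 to MCM7 the medians were 0.08 and 0.18, and 0 of 6 did. In both libraries of the pair 4 of these 6 were above the mean of the other 3 libraries of their own group. A lower level in DPT makes it harder for DPT replicate 2 to exceed the DMSO libraries. The count of 0 therefore cannot show that these genes lacked the pair difference. The G2 and mitosis list had medians of 0.50 and 0.68, and 0.004 log2 for DPT over DMSO in all 8 libraries, with 0 of 20 genes called. With the pair term 3 of its 20 genes were higher and 4 lower, and in the 6 libraries 2 were higher and 4 lower, with a median of -0.09. The part of the share of dividing cells in the members' differences was not tested.

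**Figure D4:**
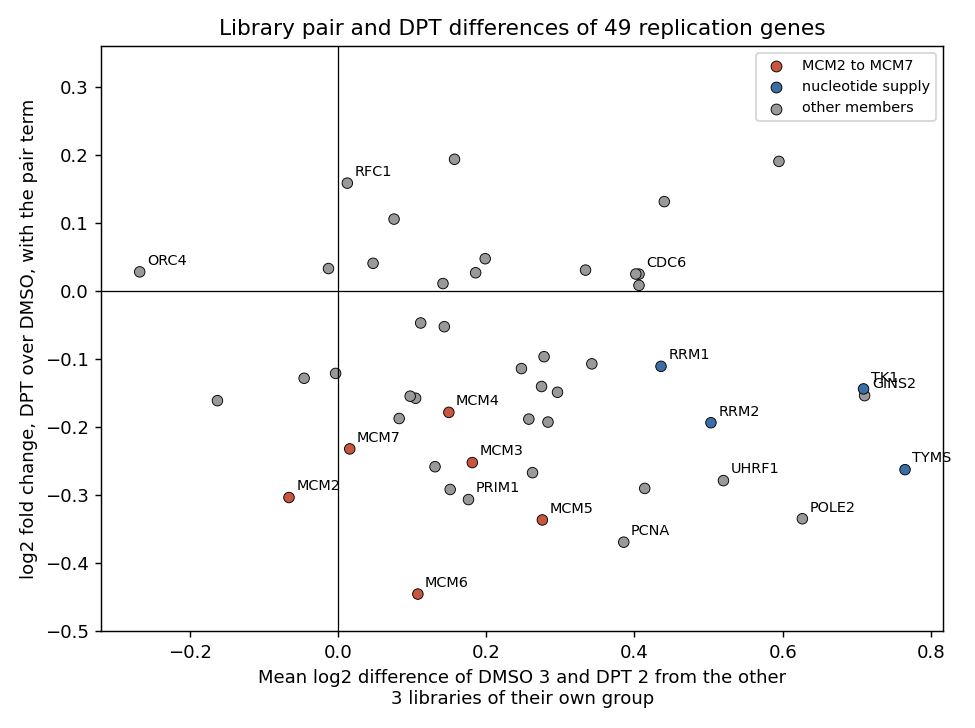
Each point is 1 of the 49 genes; the x axis is the mean log2 difference of DMSO 3 and DPT 2 from the other 3 libraries of their group, and the y axis is the log2 change (DPT over DMSO) with the pair term. MCM2 to MCM7 (red) lie below 0, with MCM2 and MCM7 nearest the vertical line and MCM5 farthest to its right. The nucleotide genes (blue) lie farther to the right, and CDC6 lies right of the vertical line at a log2 change of 0.02.

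**Figure D5:**
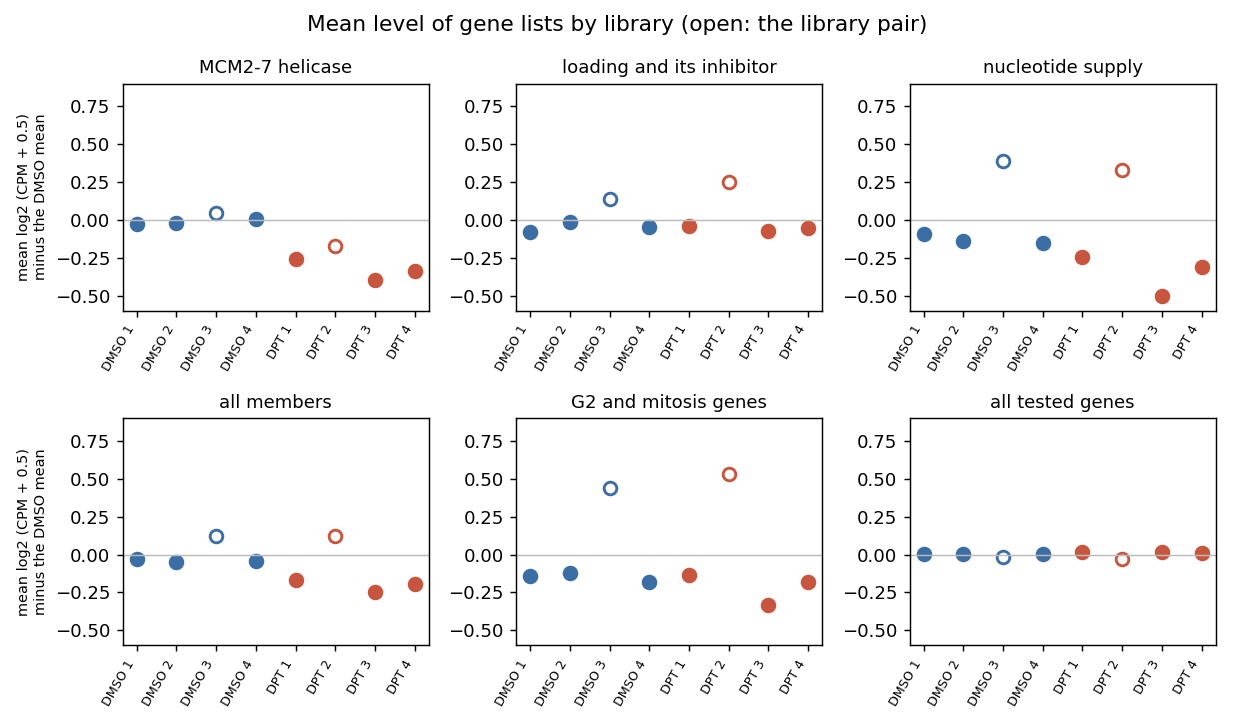
Mean log2 (CPM + 0.5) of 6 gene lists in each library, minus the mean of the 4 DMSO libraries; open points are DMSO 3 and DPT 2. The mean of MCM2 to MCM7 is lower in all 4 DPT libraries, while nucleotide supply and the G2 and mitosis list are highest in the pair, and the mean of all tested genes stays near 0.

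Further genes of replication lay on lists of names apart from the 49. Of 32 other replication factors 3 fell and 1 rose, with a median log2 change of -0.04 (2 higher and 7 lower with the pair term), beside the 5.29% lower and 5.68% higher of all tested genes in all 8 libraries and 17% and 16.9% with the term. RBBP4 (the small subunit of chromatin assembly factor 1) and the histone chaperone ASF1A fell by 0.27 and 0.25 log2 (adjusted p = 0.0271 and 0.0267), from 198 ± 11.4 to 164 ± 7.18 CPM (mean ± SD of 4 libraries each) and from 83.9 ± 3.5 to 70.7 ± 2.42 CPM (mean ± SD of 4 libraries each). TIMELESS (chosen after its values were seen), of the fork protection complex, fell by 0.31 (adjusted p = 0.0313), and LRWD1, an ORC-associated protein, rose by 0.45 from 12.9 ± 1.27 to 17.6 ± 2.32 CPM (mean ± SD of 4 libraries each) (adjusted p = 0.0371). Of 17 other nucleotide genes 3 fell and 0 rose in all 8 libraries (17.6% lower), and 4 were higher and 5 lower with the pair term. SHMT1, which makes folate one-carbon units for thymidylate, fell by 0.49 from 61.3 ± 3.41 to 43.8 ± 3.65 CPM (mean ± SD of 4 libraries each) (adjusted p = 0.00548), the mitochondrial thymidine kinase TK2 fell by 0.33 (adjusted p = 0.0322), and DUT (also chosen after its values were seen), which removes dUTP, fell by 0.31 (adjusted p = 0.039). Of 13 E2F and pocket protein genes 1 fell and 1 rose in all 8 libraries (7.69% lower), and 3 were higher and 5 lower with the pair term (38.5% lower). For E2F2, DMSO replicates 1 to 4 had 18, 16.3, 17 and 16.1 CPM and DPT replicates 1 to 4 had 9.48, 12.2, 9.33 and 8.27 CPM. E2F2, an activator, fell by 0.78 (SE 0.12, adjusted p = 0.00567) with no overlap. E2F7 measured 82.3, 79.4, 77.3 and 78.8 CPM in DMSO replicates 1 to 4 and 147, 98.8, 162 and 146 CPM in DPT replicates 1 to 4. E2F7, a repressor of E2F targets, rose by 0.80 (SE 0.13, adjusted p = 0.00633), again with no overlap, and its lowest DPT value was in replicate 2. The activator E2F1 measured 50 ± 7.05 CPM with DMSO and 47.3 ± 10.9 CPM with DPT (mean ± SD of 4 libraries each) (log2 change -0.08, adjusted p = 0.806).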

How the data were processed

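The authors deposited 1 table with an estimated count and an FPKM value for each gene in 8 libraries. The submitters' processing notes list DESeq2, RSEM, StringTie 1.3.1, HISAT2, fastp 0.18.0 and build hg38, without saying how each was set. These deposited estimated counts are not whole in 10.8% of entries and were rounded before testing. FPKM values, as deposited by the authors, were used only to compare levels between genes. Of 20323 genes, 12648 passed filterByExpr (minimum count 10). edgeR 4.0.16 (TMM scaling, quasi-likelihood test, Benjamini-Hochberg adjustment over all tested genes, called under 0.05) compared 4 DPT with 4 DMSO libraries, and was tested on simulated data. Each library held 14964432 to 17205391 counts, so 1 CPM was 14.8 counts in the smallest. The SE is that of the log2 fold change. Alternatives were a term for the pair DMSO replicate 3 and DPT replicate 2, the 6 other libraries, other scalings, DESeq2 1.42.0, limma-voom (limma 3.58.1), no filter, a replicate block and leaving out each library. Values in every library are given for members called in all 8 libraries or with the pair term (at most 12 of the latter, by smallest adjusted p) and, for each complex, for the member with the highest mean FPKM and the one with the largest change, 27 genes in all. GINS2 was added after its values were seen. From each other list up to 2 called genes per direction were named by smallest adjusted p, and TIMELESS and DUT were added after their values were seen. The members, the lists, the pair and the motifs were chosen with earlier results of these data known. Promoter windows were taken from RefSeq (GRCh38.p14). Results for some genes of the other lists are not reported here.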

Additional observations from a re-analysis of the deposited data

Results flagged for a closer look

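Of 80 groups of 4 libraries checked, 15 had 1 library far from the other 3 by Dixon's criterion. For a single group chance gives about 1 in 20. The 80 groups share the same 8 libraries, and the means of complexes reuse the same genes. The groups are therefore not independent, and the count of 15 is a description that cannot be set against chance. All but 1 of these 15 involve DMSO replicate 3 or DPT replicate 2. The exception is MCM2, at 158 CPM in DPT replicate 1 against 139.2 to 141.9 CPM in the other DPT libraries.

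In DPT replicate 2, PCNA stood at 174.6 CPM (others 117 to 126.2), UHRF1 at 132.1 CPM (others 86.04 to 93.31), TYMS at 192.6 CPM (others 98.18 to 112.7) and CDC6 at 147.3 CPM (others 106.8 to 109.5). In DMSO replicate 3, TYMS stood at 210.9 CPM (others 128.1 to 134), RRM2 at 313 CPM (others 230.8 to 240.7) and CDC6 at 138.7 CPM (others 104.4 to 110.1). ORC3 was the 1 gene of these on the low side, with 88.23 CPM in DMSO replicate 3 against 104 to 105.1 CPM.

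Means of log2 CPM over whole complexes gave the same libraries. In DMSO replicate 3 the mean was 5.945 for all members (others 5.775 to 5.797), 6.285 for the clamp and its loader (others 6.059 to 6.083) and 7.626 for nucleotide supply (others 7.08 to 7.14). In DPT replicate 2 it was 5.905 for the loading genes (others 5.587 to 5.615), 4.857 for CDC45 and GINS (others 4.45 to 4.509) and 5.257 for polymerase alpha-primase (others 4.926 to 4.972). What set these libraries apart was not tested.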

How the results depend on the processing

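The number of all tested genes higher and lower in DPT was 171 and 174 with a replicate block, 2140 and 2156 with the pair term, 2158 and 2169 in the 6 libraries, and 332 to 1183 and 311 to 1108 when each library was left out in turn. Of the members, 1 was higher with DESeq2, the pair term and the 6 libraries. The number lower was 6 with DESeq2, 1 with the replicate block, 18 with the pair term and 25 in the 6 libraries, and ran from 1 to 14 when each library was left out, the 14 being without DPT replicate 2. The members' median log2 fold change stayed between -0.22 and -0.08. Of 432 alternative values of the 27 named members 429 kept their direction, and CDC6 reversed in the others, at -0.0202 without DMSO replicate 2, -0.0043 without DMSO replicate 4 and -0.0993 without DPT replicate 2 (range -0.0993 to 0.1253 over the left-out libraries, the highest without DMSO replicate 3). The cause was not tested. Deviations from the group means correlated at 0.259, -0.38, -0.44 and 0.249 for replicate numbers 1 to 4, and at 0.718 between DMSO replicate 3 and DPT replicate 2. The group means include the pair, which sets the sign of these values. They cannot show whether libraries of the same number shared a culture or batch. Under the replicate block MCM2 and MCM7 had adjusted p of 0.0979 and 0.134. POLE2 (75 to 166 counts) and GINS4 (92 to 234 counts) had the fewest counts of the members. With the pair term their SE went from 0.23 to 0.14 and from 0.22 to 0.13, and the part of depth was not tested.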

Other observations

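In the list of other nucleotide genes, SAMHD1, which breaks down deoxynucleotides and is also an interferon-stimulated gene, ran opposite to TYMS and RRM2 across the library pair; it was chosen after its values were seen. SAMHD1 measured 153 CPM in DMSO replicate 3 and 105 CPM in DPT replicate 2, and 400.4 to 523 CPM in the other 6 libraries. With the pair term SAMHD1 was lower in DPT, by -0.37 log2 (edgeR, adjusted p = 9.5e-06), and in all 8 libraries it did not pass (adjusted p = 0.693).

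FPKM divided by CPM varied over 1.5-fold between libraries for 3 members, MCM4 (1.84-fold), POLA2 (1.63-fold) and MCM10 (1.52-fold).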
